A study of Saccharomyces cerevisiae with 21 samples.

Results

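Transcript changes after fast neutrons were set beside those after carbon ions, gene by gene, to see which genes changed alike and which did not. The arrays were chosen by their titles, 3 for fast neutrons at 20.3 Gy and 3 for carbon ions at 25 Gy. These are 6 of the 12 arrays of the series. Each had a scan at high and one at low laser power, which gave 12 of the 21 columns of values. The scans of an array were averaged, and then the probes of a gene, so that each gene had 1 value per array. A probe with a value in only 1 scan kept the value of that scan. In all, 4722 genes had a value on all 6 arrays, and the comparison rests on them.

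The cells were Saccharomyces cerevisiae S288C, the reference laboratory strain of budding yeast. Cultures of 50 ml were washed in cold saline, irradiated cold, and then returned to 50 ml of rich YPD medium for 40 min at 25 C before poly(A) RNA was taken. On every array the irradiated cells were labelled with Cy5 and an unirradiated control with Cy3, and no array had the dyes swapped. Carbon-ion cells were in 5 ml of saline in flasks and received 290 MeV per nucleon carbon ions at 3 Gy/min for 10 min. Their control was held for 10 min in flasks. Fast-neutron cells were in 2 ml of saline in cuvettes, while their control was held for 19 h in flasks. The labels give the fast-neutron exposure as 19 h in one place and as 336 min at 0.064 Gy/min in another, with 20.3 Gy of a total of 21.4 Gy due to the neutrons themselves. The radiation, dose, dose rate, time in the cold, vessel and array type therefore all differ between the groups and cannot be told apart.

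Budding yeast answers DNA breaks through the kinases Mec1, Rad53 and Dun1, which lift the Rfx1 (Crt1) repressor from the ribonucleotide reductase genes and so raise the supply of DNA building blocks. A separate program, the general stress response driven by Msn2 and Msn4, answers heat, oxidants and starvation. Genes for the separation of daughter from mother cells are switched on as cells leave mitosis and enter G1, and a cell-cycle arrest before that point leaves them off.

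Values are log2 ratios of irradiated over control, given for replicates 1, 2 and 3 in that order or as a mean ± SD (n = 3). A gene is called higher or lower where limma, fitted to the 3 arrays of one radiation against 0, gave a Benjamini-Hochberg adjusted p under 0.05. The radiations lie in separately normalized tables from different array types, so no test was run between them and differences are given as values and as whether the arrays overlap. A gene-specific dye effect would sit in all 6 ratios, since all have the same dye orientation, and cannot be told apart from a shared change. The labels say that samples were collected independently, and the number of arrays limits the precision.

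Libraries that stood apart were present on both sides. In fast neutrons replicate 2, the scan at high power had a median of 0.134 and an SD of 0.765 over probes, and the scans correlated with r = 0.693, while those of fast neutrons replicates 1 and 3 correlated with r of 0.922 and 0.929. For HUG1, SHC1, YNR014W, LIF1 and STE2 the value of fast neutrons replicate 2 came from that high-power scan alone. The scans of carbon ions replicate 3 correlated with r = 0.698. Counts of calls rested heavily on single arrays. Without fast neutrons replicate 2 the calls after fast neutrons went from 630 to 1652, and without replicates 1 or 3 to 68 and 62. In the fit without replicate 2, 836 of 4983 genes were called higher (16.8%) and 816 lower (16.4%). List counts given without that array are to be read against these shares. Limma's adjusted p in that fit followed the mean closely, with PFK26 called at 0.397 (adjusted p = 0.0421) and MAL31 not called at -0.382 (adjusted p = 0.0549). A call there is close to a cut on the mean and says little of how well the arrays agree. Without carbon ions replicate 1 limma called 0 genes, although 809 had an unadjusted p under 0.05, and without replicates 2 or 3 it called 105 and 311, against 532 with all 3 arrays. The values per array are therefore given beside the calls. The labels name the strain, but ratios to a control carry no levels to check it by. The mating type markers with a value on all 6 arrays (STE3, SAG1, STE2 and STE6) were called after neither radiation.

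Across the genome the responses ran mostly the same way. After carbon ions 267 of the 4722 genes were called higher (5.65% of those tested) and 232 lower (4.91%), and after fast neutrons 295 were called higher (6.25%) and 310 lower (6.57%). Of these, 101 were called higher after both (2.14%) and 101 lower after both (2.14%), and all 202 had one sign on all 6 arrays. Only 2 genes were called after both in opposite directions (0.0424%). The 202 genes were 40.5% of the genes called after carbon ions and 33.4% of those called after fast neutrons. Among genes called after one radiation, with or without a call after the other, the sign was the same after the other for 94.4% of the carbon-ion calls and 91.7% of the fast-neutron calls, against 70.1% of all 4722 genes. Without fast neutrons replicate 2 the genes called after both in the same direction numbered 317 and those in opposite directions 3. With arrays centred on their medians, the carbon-ion calls over all genes of that fit split into 338 higher and 203 lower, in place of 290 and 242.

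The mean ratios after the radiations correlated across the 4722 genes with r = 0.60, and single carbon-ion arrays correlated with single fast-neutron arrays with r from 0.298 to 0.568. Within a radiation r ran from 0.456 to 0.735 for carbon ions and from 0.438 to 0.692 for fast neutrons, so the lowest values within a group lay below the highest between groups. These are correlations across genes, which are not independent replicates. Over the 4420 genes measured after all 4 radiations of the series, fast neutrons and carbon ions correlated with r = 0.61. Gamma rays, on arrays with the same dye orientation, correlated with carbon ions with r = 0.41 and with fast neutrons with r = 0.18. Thermal neutrons correlated with carbon ions and with fast neutrons alike with r = 0.53.

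**Figure D1:**
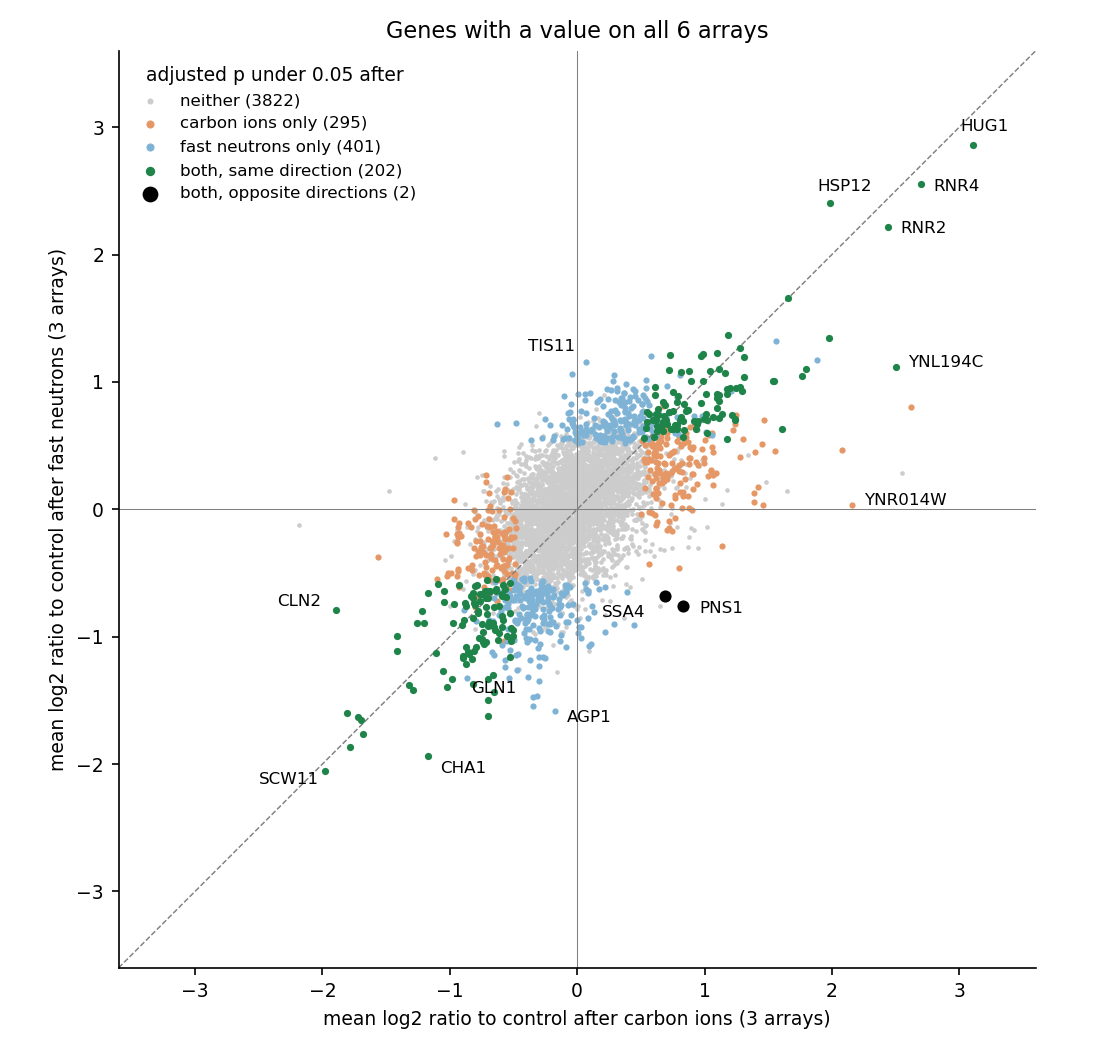
Mean log2 ratio to control after carbon ions (x axis) and after fast neutrons (y axis), over 3 arrays each, for the 4722 genes with a value on all 6 arrays. Colours give the calls at an adjusted p under 0.05, and the dashed line marks equal ratios. The 202 genes called in the same direction after both lie along the dashed line, and PNS1 and SSA4 are the 2 called in opposite directions.

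Genes of the ribonucleotide reductase pathway had the highest shared ratios. HUG1, a small protein that inhibits ribonucleotide reductase and is a standard reporter of the DNA damage checkpoint in yeast, had log2 ratios of 2.86, 3.35 and 3.12 after carbon ions and of 2.63, 3.42 and 2.52 after fast neutrons. Its arrays overlapped between the radiations, and the means corresponded to 8.63-fold and 7.25-fold over control (adjusted p = 0.00262 and 0.00143). RNR4, a small subunit of the enzyme, stood at 2.61, 2.91 and 2.57 after carbon ions and at 2.66, 2.73 and 2.26 after fast neutrons (adjusted p = 0.00262 and 0.00143). RNR2, the other small subunit, stood at 2.27, 2.67 and 2.37 and at 2.36, 2.49 and 1.80 (adjusted p = 0.00389 and 0.00179). HUG1 and RNR4 ranked first and second among all 4722 genes after both radiations, and the groups overlapped for all 3 genes.

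The regulators around the enzyme did not follow its small subunits. RNR1, the main large subunit, had log2 ratios of -0.05, -0.61 and 0.54 after carbon ions and of 0.46, 0.05 and 0.52 after fast neutrons, with no call after either. RFX1, the repressor of these genes, rose after carbon ions only by its calls, with 0.68, 0.55 and 0.64 (adjusted p = 0.0334) against 0.25, -0.94 and 0.39 after fast neutrons (adjusted p = 0.821), where replicate 2 alone was negative. SML1, an inhibitor of the enzyme, DIF1, which brings the small subunits into the nucleus, and WTM1, which holds them there, were called after neither. All 3 had every carbon-ion array above every fast-neutron array, with means of 0.31, 0.34 and 0.39 after carbon ions and of -0.17, -0.38 and -0.45 after fast neutrons. Over the 9 measured members of the ribonucleotide reductase list the median was 0.39 after carbon ions and -0.10 after fast neutrons, and without fast neutrons replicate 2 the latter was 0.32.

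Of the 25 measured DNA damage inducible genes, 10 were called higher after carbon ions and 9 after fast neutrons, 6 of them after both, and none lower. Another 5 listed genes lacked a value on some array. The list's median was 0.47 after carbon ions and 0.37 after fast neutrons, against -0.04 and 0.01 over all genes. Beside HUG1, RNR2 and RNR4, the shared calls were DDR2, PLM2 and MAG1. PLM2, a transcription factor induced by DNA damage, had ratios of 0.98, 0.61 and 1.38 after carbon ions and of 1.58, 0.76 and 1.31 after fast neutrons. MAG1, the glycosylase that removes alkylated bases, had 0.61, 0.79 and 0.61 and then 0.76, 0.35 and 0.92. For both genes the radiations overlapped.

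Members called after one radiation only were positive on nearly all arrays of the other. PHR1, the photolyase, rose after carbon ions (0.88 ± 0.42) and had 0.40 ± 0.09 after fast neutrons without a call. RAD16, a factor of nucleotide excision repair, rose after carbon ions (0.92 ± 0.48) and had 0.66 ± 0.58 after fast neutrons. UBI4, the stress-induced polyubiquitin gene, rose to 0.80 ± 0.30 after carbon ions, above every fast-neutron array (0.35 ± 0.24, not called). In the other direction, RAD54, a motor protein of homologous recombination, rose after fast neutrons (0.64 ± 0.25) and had 0.52 ± 0.42 after carbon ions. DDI1, a ubiquitin-dependent protease, rose after fast neutrons (0.82 ± 0.37) and had 0.34 ± 0.33 after carbon ions. DDR48, a flocculent stress protein, rose after fast neutrons with every array above every carbon-ion array (1.01 ± 0.16 against 0.54 ± 0.21). A call after one radiation and not the other was not tested as a difference. The 16 measured genes of double-strand break repair had medians of 0.06 after both radiations, and RAD54 was the single call among them.

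Subunits of replication protein A, which coats single-stranded DNA, show how far 1 array weighs. RFA3 had ratios of 0.40, 0.49 and 0.50 after carbon ions and of 0.65, -1.12 and 0.36 after fast neutrons, and was called after neither. Without fast neutrons replicate 2 its mean after fast neutrons went from -0.03 to 0.51 and was called higher. RFA2 likewise had 0.28, -1.21 and 0.33 after fast neutrons, with replicate 2 alone below 0.

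Genes of the general stress response were the largest block of shared increases among the lists described here. Of 35 measured members, 22 were called higher after carbon ions, 17 after fast neutrons and 13 after both, and none was called lower. Those higher after fast neutrons numbered 3, 24 and 5 without their replicates 1, 2 and 3. The median was 0.94 after carbon ions and 0.63 after fast neutrons. HSP12, a small protein that protects membranes under stress, had ratios of 1.62, 2.27 and 2.06 after carbon ions and of 2.50, 2.67 and 2.04 after fast neutrons. FMP16, a mitochondrial protein of unknown role, had 1.55, 1.85 and 1.57 and then 1.54, 2.27 and 1.16, and its groups overlapped as HSP12's did. DDR2, induced by many stresses, had 1.91, 2.06 and 1.97 after carbon ions, all above the 1.19, 1.88 and 0.97 after fast neutrons. For 10 members (28.6%) all carbon-ion arrays lay above all fast-neutron arrays, and for 1 (2.86%) the reverse held. Over all genes these shares were 9.28% and 13.2%.

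Genes of the defence against oxidants had similar ratios after both. Of 34 measured members, 10 were called higher after carbon ions and 14 after fast neutrons, 8 of them after both, and 1 was called lower after fast neutrons. Those higher after fast neutrons numbered 1, 18 and 3 without their replicates 1, 2 and 3. Medians were 0.44 and 0.50. AHP1, a peroxiredoxin, had ratios of 1.42, 1.19 and 0.95 after carbon ions and of 1.51, 1.58 and 1.02 after fast neutrons. SOD1, the copper-zinc superoxide dismutase, had means of 1.16 ± 0.11 and 1.07 ± 0.37, and TRX2, a thioredoxin, 0.97 ± 0.31 and 1.21 ± 0.24, and both genes were called after both. GTT1, a glutathione transferase, was called after both but stood higher after carbon ions on every array (1.55 ± 0.39 against 1.00 ± 0.23).

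Further shared increases came from several functions. CYC7, the cytochrome c isoform of low oxygen, had ratios of 1.20, 1.16 and 1.48 after carbon ions and of 1.20, 1.44 and 1.16 after fast neutrons. SHC1, an activator of chitin synthase in sporulation, had means of 1.31 ± 0.39 and 1.19 ± 0.34. ECM4, a glutathione transferase, had 1.11 ± 0.32 and 1.10 ± 0.16. These 3 genes differed less between the radiations than between the arrays of one of them. YLR297W, of unknown role, had 1.10 ± 0.21 and 1.22 ± 0.10, while after gamma rays it stood at -1.03. YNL194C, of the family of the eisosome-associated protein Sur7, was called after both but was larger after carbon ions, with 2.78, 3.11 and 1.62 against 1.19, 1.29 and 0.88, and its groups did not overlap.

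Genes of cell separation and the M/G1 boundary formed the largest block of shared decreases among the lists described here. Of 22 measured members, 14 were called lower after carbon ions and 13 after fast neutrons, 11 of them after both, and 1 was called higher after carbon ions. The median was -0.79 after carbon ions and -0.91 after fast neutrons, and lay below 0 on each of the 6 arrays. SCW11, a glucanase-like cell wall protein, had ratios of -1.71, -2.28 and -1.94 after carbon ions and of -1.69, -2.58 and -1.90 after fast neutrons. DSE1, a daughter-specific protein, had -1.75, -2.02 and -1.58 and then -1.81, -2.07 and -1.73. EGT2, needed for timely cell separation, had -1.78, -1.72 and -1.56 and then -1.68, -1.69 and -1.93. For all 3 genes the arrays of the radiations overlapped. In bulk RNA, fewer cells in that phase and less transcript per cell cannot be told apart.

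The remaining lowest shared genes were mostly of the same kind. DSE4, an endoglucanase that cuts the septum, had means of -1.70 ± 0.13 after carbon ions and -1.66 ± 0.08 after fast neutrons. DSE2, another daughter-specific glucanase, had -1.72 ± 0.18 and -1.63 ± 0.38. AMN1, which shuts off mitotic exit in daughter cells, had -1.32 ± 0.04 and -1.38 ± 0.22, and SUN4, a septation protein, -1.11 ± 0.12 and -1.13 ± 0.18. These 4 genes and MLO50 (-1.29 ± 0.43 and -1.42 ± 0.20) overlapped between the radiations. SFG1, a transcription factor of filamentous growth, had means of -1.81 ± 0.55 and -1.60 ± 0.93, and its fast-neutron mean was -1.06 without replicate 2, which stood at -2.66. PRY3, a cell wall protein, was the exception among them, lower on every carbon-ion array (-1.46, -1.31 and -1.47) than on any fast-neutron array (-1.11, -0.98 and -1.26).

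**Figure D2:**
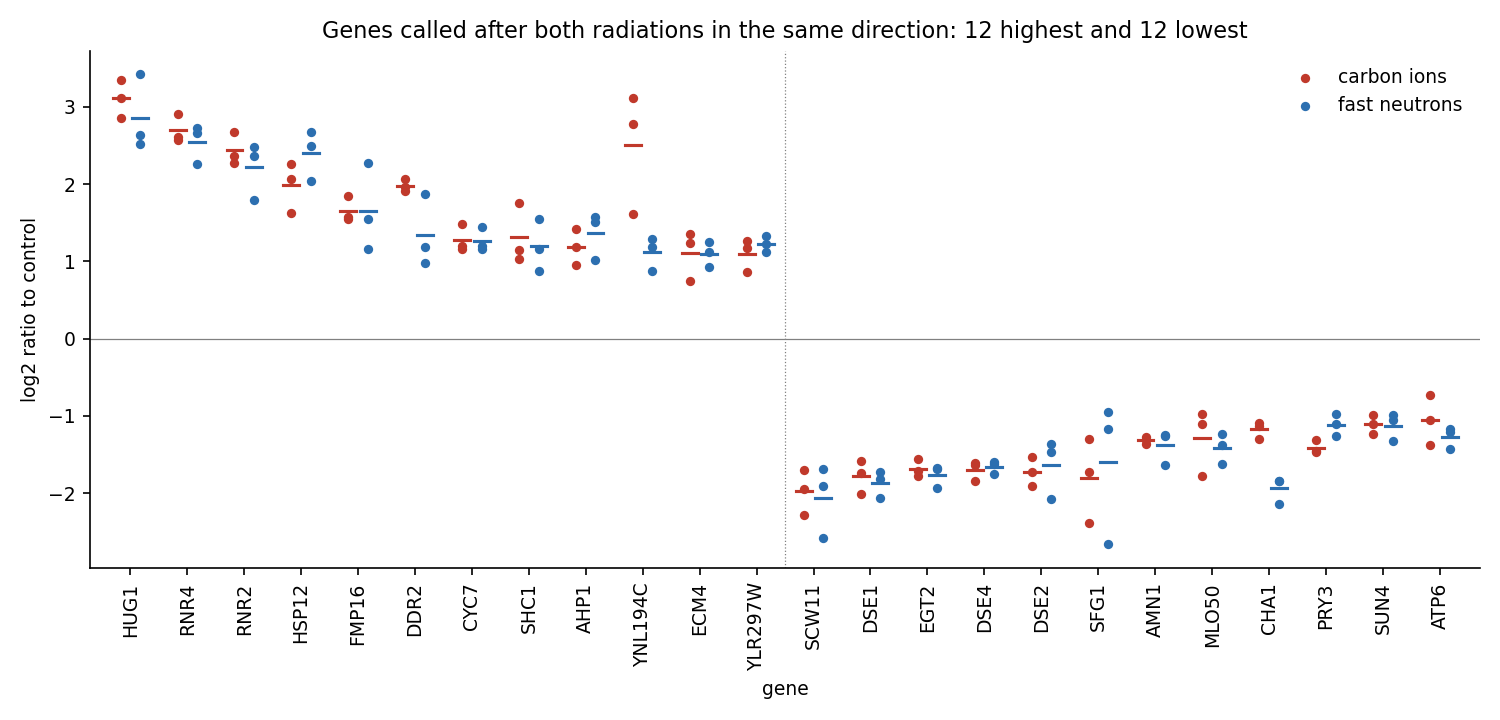
Log2 ratio to control on each array (points) and mean over 3 arrays (bars) for the 12 highest and 12 lowest genes called after both radiations in the same direction, ranked by the mean nearer 0. HUG1, RNR4 and RNR2 overlap between the radiations near log2 ratios of 2 to 3, and YNL194C, DDR2, CHA1 and PRY3 do not overlap.

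Several G1/S genes had lower ratios after carbon ions than after fast neutrons. CLN2, a G1 cyclin, had ratios of -2.09, -1.79 and -1.81 after carbon ions and of -0.77, -0.56 and -1.04 after fast neutrons. It was called lower after both (adjusted p = 0.00671 and 0.0239), and no fast-neutron array came as low as any carbon-ion array. HCM1, a forkhead transcription factor of S phase, had -1.09 ± 0.48 and -0.59 ± 0.10 and was called after both, while EXG1, a cell wall glucanase, had -0.98 ± 0.45 and -1.33 ± 0.23. Of 29 measured G1/S genes, 10 were called lower after carbon ions and 4 after fast neutrons, all 4 among the 10, and PLM2 was called higher after both. The number called lower after fast neutrons was 1, 10 and 1 without their replicates 1, 2 and 3. CLB1, a mitotic cyclin, was called lower after both (-1.22 ± 0.64 and -0.80 ± 0.50).

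Arrays of one radiation lay entirely above those of the other for more genes than were called in opposite directions. All 3 fast-neutron arrays lay above all 3 carbon-ion arrays for 625 genes (13.2%), and the reverse held for 438 genes (9.28%). With arrays centred on their medians these numbers were 485 and 601, so which direction was commoner depended on the centring. Of 34 measured DNA replication genes, 10 lay higher after fast neutrons in this way and none lower, or 8 and 1 with centring. Their median was -0.28 after carbon ions and 0.06 after fast neutrons. After carbon ions 2 of the 34 were called lower, near the 4.91% of all genes. None was called after fast neutrons, or 3 higher without replicate 2, also a smaller share than over all genes of that fit. ORC3, a subunit of the origin recognition complex, had ratios of -0.55, -0.71 and -0.62 after carbon ions (adjusted p = 0.0334) and of -0.33, -0.22 and -0.19 after fast neutrons (adjusted p = 0.26). Ribosome assembly genes showed the same order, with 22 of 84 higher after fast neutrons and 3 lower, and medians of -0.35 and -0.11. Array medians were -0.38, -0.58 and -0.06 after carbon ions and -0.16, -0.12 and 0.04 after fast neutrons. Carbon ions replicate 3 thus lay above fast neutrons replicates 1 and 2. In that list 6 of 84 genes were called lower after carbon ions, against 4.91% of all genes. After fast neutrons 3 were called higher and 3 lower, against 6.25% and 6.57% of all genes. These fast-neutron calls were 8 and 10 without replicate 2, smaller shares than over all genes of that fit, and none without replicates 1 or 3. NOP58, a protein of the box C/D snoRNPs, went the other way, at -0.52 ± 0.30 after carbon ions and lower on every fast-neutron array (-1.01 ± 0.22, adjusted p = 0.0136).

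Genes of sugar and storage carbohydrate metabolism parted in the opposite sense. Of 30 measured genes of glycolysis and fermentation, 7 were called higher after carbon ions and none lower, while after fast neutrons 1 was called higher and 2 lower, and no gene was shared. The medians of the gene means were 0.24 and -0.20. On single arrays the list median was 0.23, 0.39 and 0.12 after carbon ions, and nearer 0 after fast neutrons, at -0.01, -0.07 and -0.12. Leaving out fast neutrons replicate 2 gave a median of -0.06 after fast neutrons. Of the 30, 15 (50%) had all carbon-ion arrays above all fast-neutron arrays, against 9.28% of all genes, and 1 the reverse. Without fast neutrons replicate 2, 5 were called higher and 10 lower after fast neutrons, and without replicates 1 or 3 none was called. GLK1, the glucokinase, had ratios of 0.82, 1.09 and 0.91 after carbon ions (adjusted p = 0.0245) and of 0.29, 0.45 and -0.14 after fast neutrons (adjusted p = 0.436). HXK1, a hexokinase repressed by glucose, had 1.55, 1.67 and 0.94 and then 0.53, -0.60 and 0.46. Its fast-neutron mean was 0.49 without replicate 2 and was called higher. PFK26, which makes an activator of glycolysis, had means of 1.22 ± 0.27 and 0.62 ± 0.40 and its arrays overlapped.

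Glycogen and trehalose genes showed the same pattern. Of 18 measured members, 7 were called higher after carbon ions, and 1 higher and 1 lower after fast neutrons. These fast-neutron calls were 4 and 2 without replicate 2, and none without replicates 1 or 3. Medians were 0.57 and 0.15. For 8 members (44.4%, against 9.28% of all genes) every carbon-ion array was above every fast-neutron array, and for none the reverse held. GDB1, the glycogen debranching enzyme, was called higher after both (1.18 ± 0.11 and 0.90 ± 0.51). GLC3, the branching enzyme, had ratios of 2.57, 3.08 and 0.58 after carbon ions and of 0.70, 0.15 and 0.55 after fast neutrons, so that replicate 3 of carbon ions lay among the fast-neutron arrays. GSY1, a glycogen synthase, had 2.11, 2.88 and -0.04 after carbon ions and was not called. The low value of carbon ions replicate 3 recurred in PGM2, HXT2, MPC3 and GPD1, with 0.41, -0.42, -0.15 and 0.28 against 1.08 or more on replicates 1 and 2. Without that array the carbon-ion medians were 0.63 for the glycogen and trehalose list and 0.25 for glycolysis and fermentation. The part of that array in the difference was not tested.

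**Figure D3:**
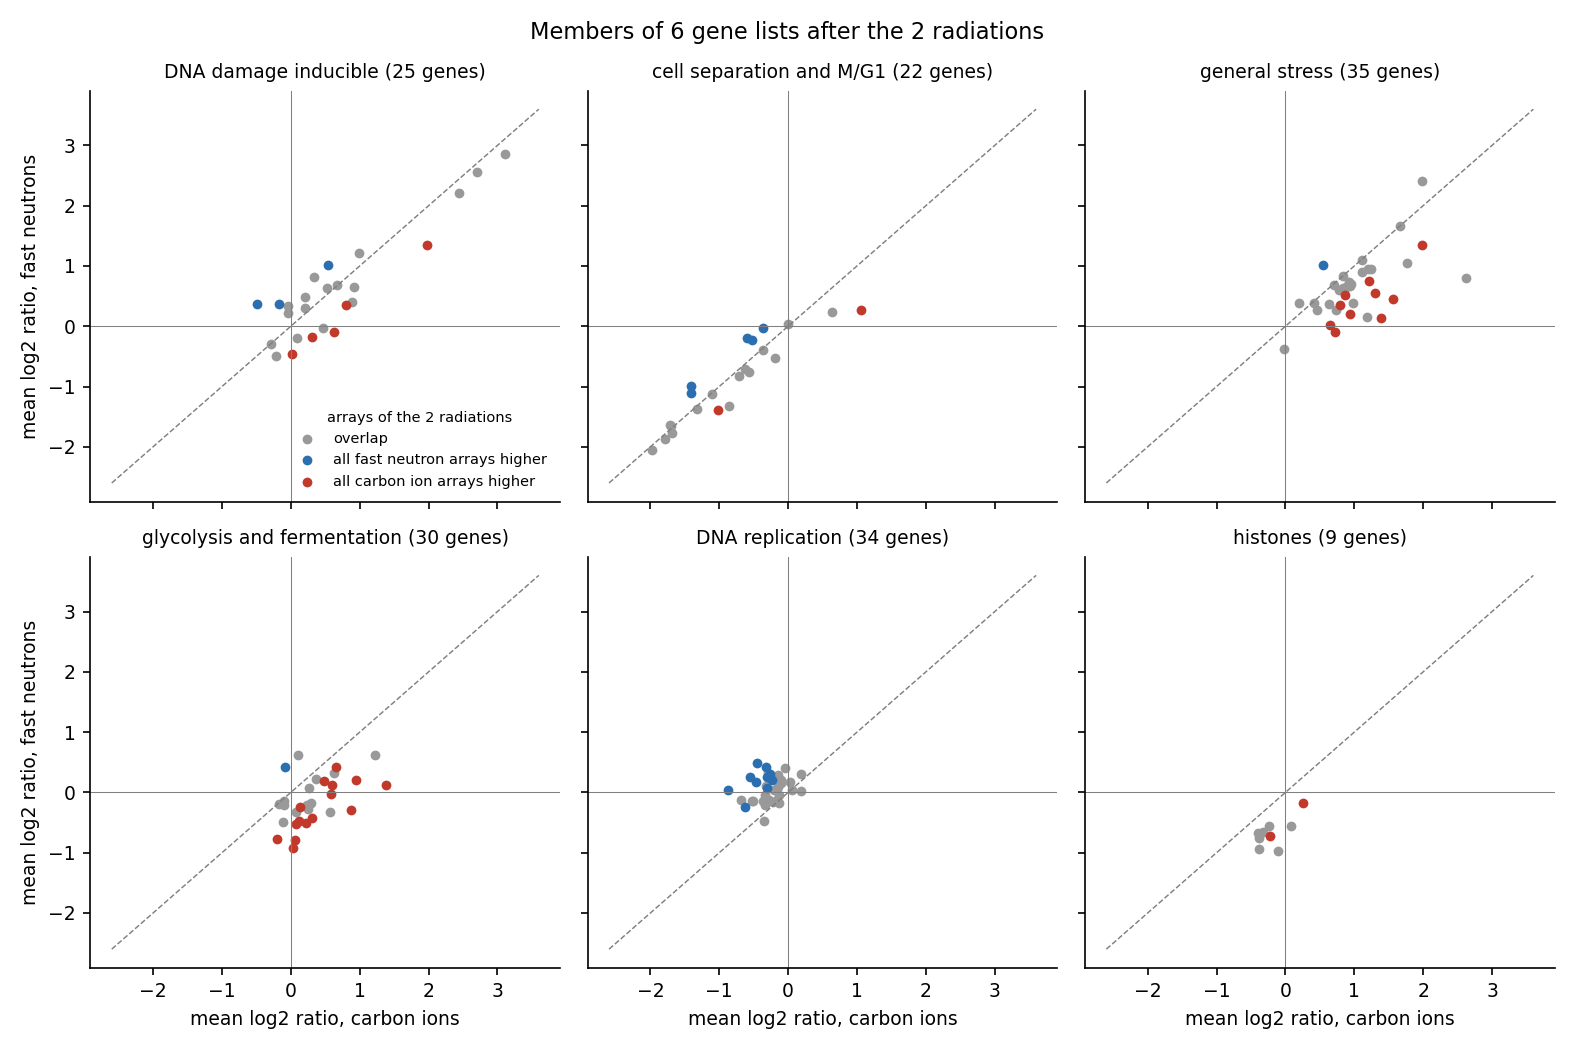
Mean log2 ratio after carbon ions (x axis) and fast neutrons (y axis) for the measured members of 6 gene lists. Grey points have overlapping arrays, blue points have all fast-neutron arrays above all carbon-ion arrays and red points the reverse. Most members of the cell separation list lie along the dashed line of equal ratios, 15 of 30 glycolysis genes lie below it in red, and 10 of 34 replication genes lie above it in blue.

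Single genes that parted most were taken as those called after one radiation with a mean of at least 1 from 0, with a mean within 0.25 of 0 or on the other side of 0 after the other, and with arrays that did not overlap. There were 6 such genes higher after carbon ions, 1 lower after carbon ions, 2 higher after fast neutrons and 7 lower after fast neutrons. YNR014W, of unknown role, had ratios of 2.64, 2.90 and 0.93 after carbon ions and of 0.63, -0.67 and 0.14 after fast neutrons. YPK2, a kinase of membrane stress signalling, had 1.46 ± 0.88 and then 0.03 ± 0.20, with 0.57 on carbon ions replicate 3. PGM2, the main phosphoglucomutase and the chromosomal neighbour of YPK2, had 1.58, 1.44 and 0.41 and then -0.79, 0.31 and -0.38. For all 3 genes carbon ions replicate 3 was the lowest of its group, yet above each fast-neutron array. TDA1, a kinase, and AIM17 had means of 1.39 ± 0.71 and 1.42 ± 0.49 after carbon ions and of 0.06 ± 0.42 and 0.17 ± 0.36 after fast neutrons. PGM2 was called lower after fast neutrons, with a mean of -0.58, when replicate 2 was left out. HCA4, a helicase of ribosome assembly, was the gene lower after carbon ions (-1.03 ± 0.45 against -0.19 ± 0.38).

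SPO12 and TIS11 were the genes higher after fast neutrons. SPO12, a regulator of mitotic exit, had ratios of 0.39, -0.46 and -0.06 after carbon ions and of 1.22, 0.80 and 1.16 after fast neutrons (adjusted p = 0.89 and 0.0126). TIS11, which triggers decay of mRNAs when iron is short, had -0.08, 0.50 and -0.21 and then 1.10, 1.53 and 0.84 (adjusted p = 0.799 and 0.0134). Both genes were above 0 on all fast-neutron arrays and on both sides of 0 after carbon ions.

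Nutrient uptake and biosynthesis genes included several with lower ratios after fast neutrons. AGP1, a broad amino acid permease, had ratios of -0.06, 0.14 and -0.60 after carbon ions and of -1.71, -1.35 and -1.69 after fast neutrons (adjusted p = 0.00368). DIP5, the permease for acidic amino acids, was called lower after both, with -0.70 ± 0.23 after carbon ions and lower on every fast-neutron array (-1.63 ± 0.17). GNP1, the glutamine permease, had -0.81 ± 0.31 and -1.12 ± 0.14, was called lower after both and its arrays overlapped. CHA1, the deaminase that breaks down serine and threonine, fell after both, with -1.10, -1.13 and -1.29 after carbon ions and -2.14, -1.84 and -1.84 after fast neutrons. Of 22 measured uptake genes, 5 were called lower after carbon ions and 6 after fast neutrons, 3 of them after both. Those lower after fast neutrons numbered 3, 13 and 3 without their replicates 1, 2 and 3.

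Amino acid biosynthesis genes had similar medians after both. Its 61 measured genes had medians of -0.34 after carbon ions and -0.38 after fast neutrons, with 8 called lower after carbon ions, 23 after fast neutrons and 7 after both. The count after fast neutrons was 5, 33 and 3 without their replicates 1, 2 and 3, and that after carbon ions at most 3 without any one of theirs. GLN1, glutamine synthetase, had ratios of -0.20, -0.26 and -0.57 after carbon ions and of -1.45, -1.26 and -1.71 after fast neutrons (adjusted p = 0.126 and 0.00607), with no overlap. LYS9, of lysine synthesis, was likewise lower on every fast-neutron array (-1.33 ± 0.26 against -0.54 ± 0.40), while LYS12 of the same pathway had close means (-0.91 ± 0.07 and -0.90 ± 0.31) and was called after both. In purine synthesis, 7 of 25 were called lower after fast neutrons (0, 11 and 0 without replicates 1, 2 and 3) and none after carbon ions. ADE17, which makes inosine monophosphate, had ratios near 0 after carbon ions (-0.00, 0.26 and 0.01) and of -1.27, -0.85 and -1.11 after fast neutrons. IMD3, an inosine monophosphate dehydrogenase, had -0.29 ± 0.25 and -1.05 ± 0.41. Of 26 genes of ergosterol and fatty acid synthesis, 2 were called lower after carbon ions and 7 after fast neutrons. The latter count was 1, 10 and 2 without fast neutrons replicates 1, 2 and 3. Medians were -0.26 and -0.29. Of the 26, 6 (23.1%) had all fast-neutron arrays higher and 8 (30.8%) the reverse, against 13.2% and 9.28% of all genes. Among the 7 was FAS2, a subunit of fatty acid synthase (-1.16 ± 0.39 after fast neutrons against -0.30 ± 0.32 after carbon ions).

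The other genes lower after fast neutrons alone were of unlike functions. VPH1, a subunit of the vacuolar proton pump, had means of -0.25 ± 0.24 after carbon ions and -1.17 ± 0.31 after fast neutrons, and ISR1, a kinase, -0.14 ± 0.66 and -1.03 ± 0.15. PLB1, a phospholipase B, TNA1, the nicotinic acid permease, and TCB1, a tricalbin of membrane contact sites, rested largely on fast neutrons replicate 2, which read between -2.01 and -1.92. Without that array their fast-neutron means were -0.58, -0.55 and -0.62.

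**Figure D4:**
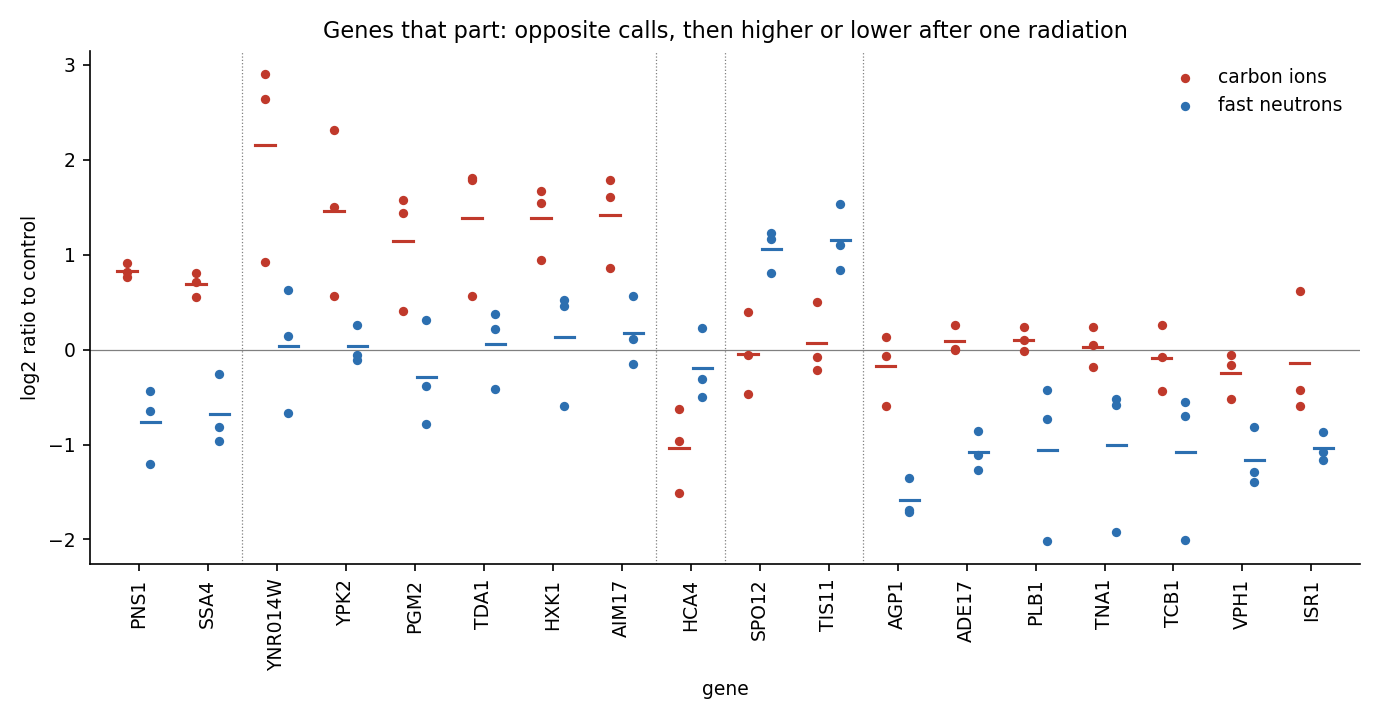
Log2 ratio to control on each array (points) and mean over 3 arrays (bars) for the 2 genes called in opposite directions and the 16 genes that parted, with dotted lines between the classes. Carbon ions replicate 3 is the low red point in YNR014W, YPK2, PGM2 and TDA1, and fast neutrons replicate 2 is the low blue point in PLB1, TNA1 and TCB1.

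Chaperone genes held one of the opposite calls. SSA4, the heat-induced Hsp70, had ratios of 0.55, 0.80 and 0.71 after carbon ions and of -0.96, -0.26 and -0.81 after fast neutrons (adjusted p = 0.0327 and 0.0454). PNS1, a membrane protein of the choline-transporter-like family, had 0.82, 0.77 and 0.91 and then -0.64, -1.20 and -0.44 (adjusted p = 0.0254 and 0.0358). In both genes all arrays of a radiation shared a sign. HSP42, a small heat shock protein, rose after carbon ions (1.05 ± 0.30) and had 0.31 ± 0.08 after fast neutrons, with no overlap. Of 33 chaperone genes, 5 were called higher and 1 lower after carbon ions, and none higher and 4 lower after fast neutrons. For 11 (33.3%, against 9.28% of all genes) every carbon-ion array lay above every fast-neutron array, and for none the reverse held. With arrays scaled to the same spread these numbers were 9 and 3. After fast neutrons 2 were called higher and 11 lower when replicate 2 was left out, and none when replicate 1 or 3 was.

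Among the protein-making machinery, cytosolic ribosomal protein genes had similar medians after both. Of 122 measured, 19 were called higher after carbon ions and 15 higher and 2 lower after fast neutrons, 9 higher after both, and the medians were 0.28 and 0.25. The 122 include RPP1, a subunit of RNase P and not a ribosomal protein, with means of 0.19 and -0.12. After fast neutrons 47 were called higher and 8 lower without replicate 2, and none either way without replicates 1 or 3. Many of these genes have near-identical copies whose probes may not tell them apart. Of 36 measured translation factors, 10 (27.8%) had every fast-neutron array above every carbon-ion array and 5 (13.9%) the reverse. Over all genes these shares were 13.2% and 9.28%. Among the 5 were the elongation factors TEF4, at -0.38 ± 0.12 after carbon ions and -1.31 ± 0.32 after fast neutrons, and EFT2, which has a twin copy, at -0.41 ± 0.12 and -0.89 ± 0.16. Both were called lower after fast neutrons and not after carbon ions. Histone genes were called lower only after fast neutrons, 5 of the 9 measured, with a median of -0.67 against -0.23 after carbon ions. Without fast neutrons replicates 1, 2 and 3 the calls numbered 1, 6 and 0. HHT2, a histone H3 gene with a near-identical copy, had ratios of -0.26, -0.65 and -0.23 after carbon ions and of -0.60, -1.12 and -1.10 after fast neutrons, and its arrays overlapped. The difference in histone calls was not tested. For 2 of the 9 genes (22.2%, against 9.28% of all genes) every carbon-ion array lay above every fast-neutron array.

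Mitochondrially encoded genes, whose transcripts in yeast lack the poly(A) tails by which the RNA was purified, had negative medians after both. ATP6, a subunit of the ATP synthase, had ratios of -1.05, -0.74 and -1.38 after carbon ions and of -1.21, -1.44 and -1.17 after fast neutrons, and was called after both. COX3, a subunit of cytochrome oxidase, had -0.47 ± 0.12 and -1.26 ± 0.34, lower on every fast-neutron array. COX2 had means of -0.30 and -0.70. OLI1 stood above 0 after carbon ions, with a mean of 0.65 that was not called, and had -0.76 after fast neutrons. The 4 measured genes had medians of -0.39 and -1.01, and 1 was called lower after carbon ions and 3 after fast neutrons. Proteasome genes had medians of 0.23 and 0.29, with 4 of 33 called higher after fast neutrons and none after carbon ions. Of these, SCL1, PRE4, PRE1 and PRE7, subunits of the core particle, had means from 0.64 to 0.86 after fast neutrons. Each had every fast-neutron array above every carbon-ion array. In the whole list 5 of 33 genes lay so (15.2%), near the 13.2% of all genes. With arrays centred on their medians it was 3 (9.09%), against 10.3% of all genes. Proteasome genes called higher after fast neutrons numbered 0, 15 and 0 without their replicates 1, 2 and 3.

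Iron, copper and phosphate genes stood the other way from the sugar genes. Of 27 iron and copper genes, 10 (37.0%) had every fast-neutron array above every carbon-ion array and 1 (3.70%) the reverse. Over all genes these shares were 13.2% and 9.28%. The medians were -0.08 after carbon ions and 0.27 after fast neutrons. CUP1-1, the copper metallothionein with a repeated copy, had ratios of 0.40, 0.71 and 0.27 after carbon ions and of 0.83, 1.11 and 0.86 after fast neutrons, and was called after the latter only. FRE1, a ferric and cupric reductase, was called lower after both (-0.76 ± 0.15 and -0.67 ± 0.14), and CRS5, another metallothionein, higher after both (1.01 ± 0.40 and 0.90 ± 0.24). Of 22 phosphate genes, 7 (31.8%, against 13.2% of all genes) lay higher after fast neutrons and none lower, with medians of -0.14 and 0.26. Calls in that list were 1 higher and 1 lower after carbon ions, and 3 higher and 1 lower after fast neutrons. DDP1, a polyphosphate phosphatase, had 0.37 ± 0.05 and 0.91 ± 0.41 and was called after fast neutrons only. The list members VTC2, PHO84 and PHO89 had fast-neutron means of -0.73, -1.25 and 0.48 without replicate 2. With the low-power scan alone for that array the means were -0.74, -0.81 and 0.82, and PHO84 was not called. Over 11 alternatives VTC2, PHO84 and PHO89 were called after fast neutrons in 8, 1 and 5. A difference between the radiations was not tested for them.

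**Figure D5:**
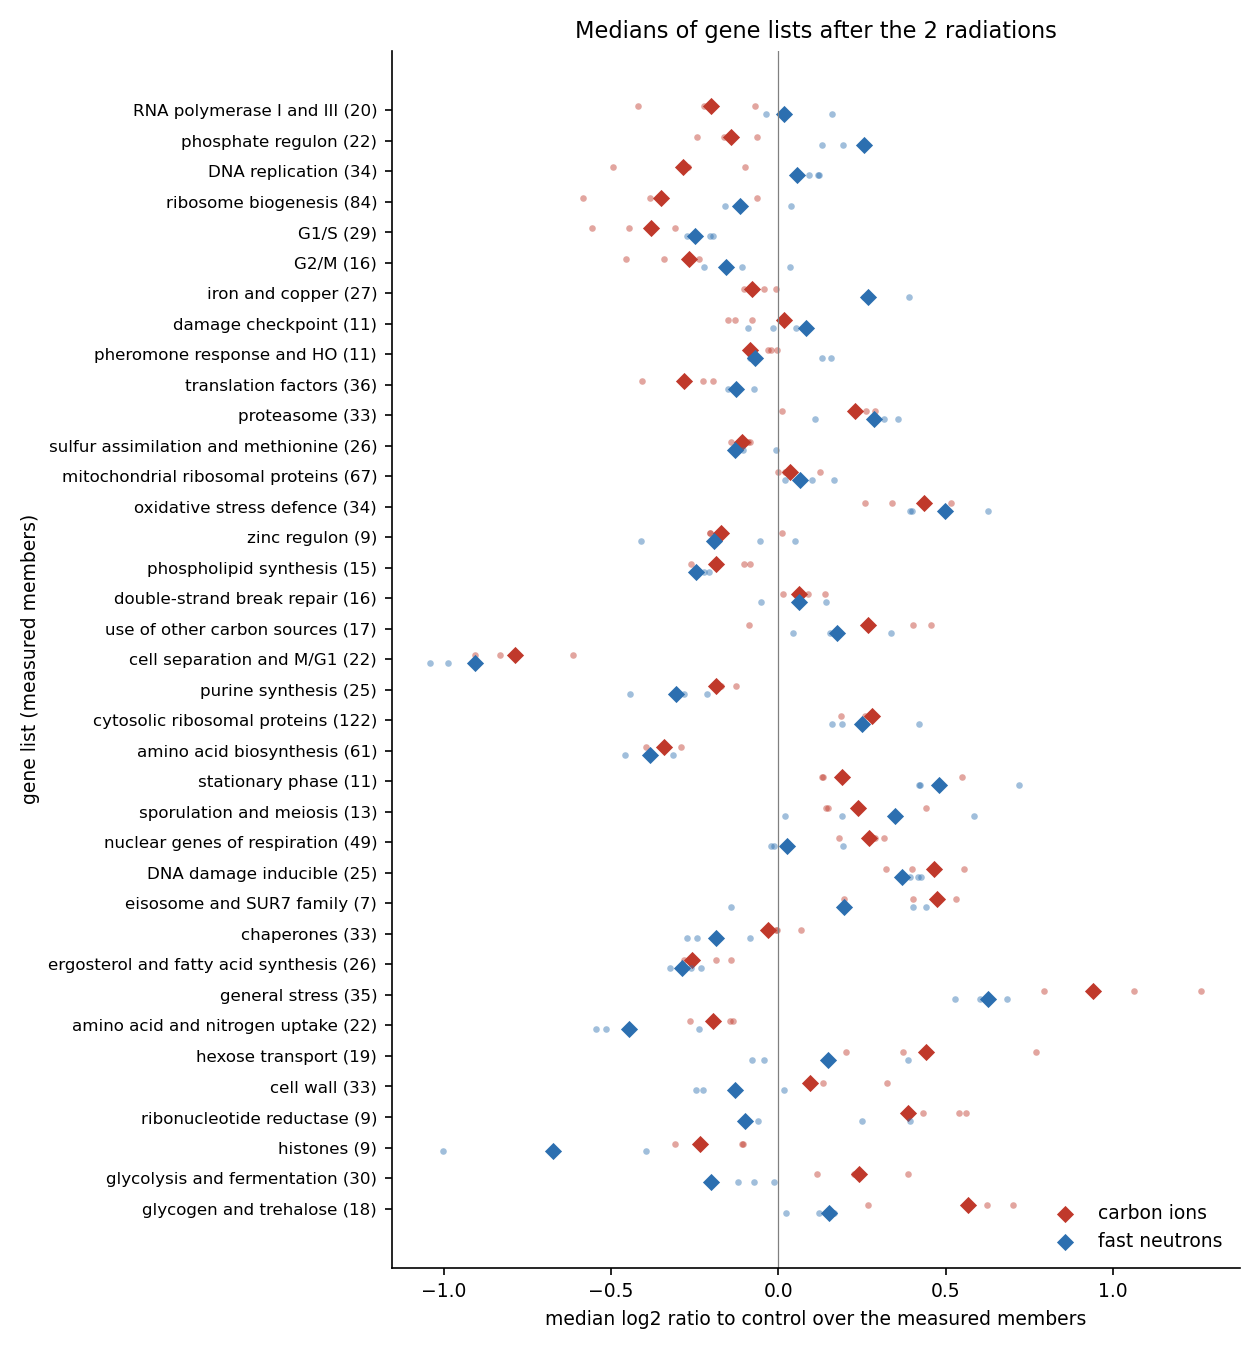
Median log2 ratio to control over the measured members of each gene list with at least 5 of them, after carbon ions (red) and fast neutrons (blue). Diamonds give the median of the gene means and small points the median on each array, and lists are ordered by the median difference. Glycogen, glycolysis and histone lists stand at the end where carbon ions are higher, and the RNA polymerase I and III, phosphate, replication and ribosome assembly lists at the end where fast neutrons are higher.

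Sizes were close where both radiations called a gene. The 101 genes called higher after both had a median log2 ratio of 0.91 after carbon ions and 0.78 after fast neutrons, with 65 further from 0 after carbon ions and 36 after fast neutrons. The 101 called lower after both had medians of -0.77 and -0.90, with 37 further from 0 after carbon ions and 64 after fast neutrons. Of the 202 genes, 188 of the 194 measured after thermal neutrons had the same sign there and 161 were called in that direction. After gamma rays 152 of 199 had the same sign and 90 were called in that direction.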

How the data were processed

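Two-colour arrays compared irradiated and control RNA. The deposited values are log2 ratios; per the labels, spots with flag value 0 entered the authors' LOWESS normalization, and the image software is not given in the sources used here. The log base was settled from the values, since 4 columns of the series have their minimum at log2 of 0.01. Values merged in GeneSpring were not used. Carbon ions lie in a table with 2 other radiations and fast neutrons in their own, each of 6912 probes. Probes with a symbol in the platform annotation numbered 5446 and 5513, and 5392 of 5404 probe IDs named in both carried the same gene. The remaining probes were not used here.

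Scans, then probes, were averaged. Each radiation's 3 arrays were fitted alone in limma 3.58.1 (R 4.3.3; lmFit, eBayes, two-sided against 0) over genes with 3 values, with Benjamini-Hochberg adjustment and a threshold of 0.05. The fit was tested on simulated data.

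Genes and the 39 lists were chosen with earlier results of these data known. Agreeing genes are the 12 highest and 12 lowest by the mean nearer 0, parting genes follow the thresholds in the text, and lists give up to 4 members furthest from 0, or any member for the DNA damage, ribonucleotide reductase and mating type lists. Alternatives were other scans, probe summaries, filters, centring, scaling, left-out arrays and a joint fit.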

Additional observations from a re-analysis of the deposited data

Results flagged for a closer look

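Among the named genes, 9 had every carbon-ion array on one side of 0 and every fast-neutron array on the other. The difference was not tested for any of them, since the tables were normalized separately. Given as fast neutrons minus carbon ions on the log2 scale, the mean differed by -1.59 for PNS1 and -1.37 for SSA4, the genes called in opposite directions. LIF1, a partner of DNA ligase IV in end joining, differed by -1.22 and had 0.29, 0.51 and 0.32 after carbon ions and -0.05, -2.13 and -0.37 after fast neutrons, so the gap rests largely on fast neutrons replicate 2. MET4, the activator of sulfur metabolism, differed by 1.01, and SAM2, an S-adenosylmethionine synthetase, by 0.88. NTG1 and OGG1, glycosylases of base excision repair, differed by 0.53 and 0.87. DIF1 differed by -0.73 and WTM1 by -0.84. These 7 genes were called after neither radiation. Over all 4722 genes, 73 (1.55%) were positive on all carbon-ion arrays and negative on all fast-neutron arrays, and 158 (3.35%) the reverse.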

How the results depend on the processing

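Calls after carbon ions numbered 532, or 913 with probes measured in both scans and 1148 when fitted with the other arrays of their table, and 0 to 311 with an array left out. Calls after fast neutrons numbered 630, or 35 from high-power scans, 1323 from low-power scans, 980 with arrays scaled to one spread, 1391 with the low-power scan alone for replicate 2 (chosen after seeing the data), and 62 to 1652 with an array left out. Genes called after both in the same direction numbered 202, or 20 from high-power scans, 306 with probes measured in both scans, 333 with scaling, and 0 to 317 with an array left out. Those in opposite directions numbered 2, or 0 from high-power scans, 1 when 2 of 3 arrays sufficed, and 0 to 3 with an array left out. Limma's unadjusted p was under 0.05 for 1611 and 1122 genes in the high-power scans after carbon ions and fast neutrons. Genes with all fast-neutron arrays higher numbered 625, and 807 to 994 with an array left out, and those with all carbon-ion arrays higher 438, and 605 to 803. These alternatives for arrays that do not overlap were chosen after seeing the data. The mean of RFA3 after fast neutrons ran from -0.38 to 0.51 with an array left out, and at 0.51 (without replicate 2) it was called. Of the other values of named genes, 3460 kept their side of the threshold, 439 lost a call and 212 gained one, with no change of sign between a call and its alternative. All 24 agreeing genes kept their sign in every alternative run, and 17 were called after fast neutrons in all. Without fast neutrons replicate 2 all 24 were called after fast neutrons, but a call in that fit is close to a cut on the mean. Of the 16 parting genes, 10 kept their sign after carbon ions and 11 after fast neutrons in every alternative, counting also the radiation with a mean near 0. Only 2 of the 16 were called after carbon ions in all alternatives but at most one, and 1 after fast neutrons in all. By the rule only the 6 higher and 1 lower after carbon ions had a carbon-ion call to keep. Likewise only the 2 higher and 7 lower after fast neutrons had a fast-neutron call to keep. Medians of the DNA damage, general stress, cell separation, glycolysis, glycogen, replication and histone lists kept their sign after both radiations in the 11 alternatives run on lists, and the carbon-ion median of the chaperone list did not (-0.05 to 0.04). Irradiated and control RNA were paired within each array by the ratio, and each fit held the 3 ratios of one radiation against 0. No pairing of arrays between the radiations was used. The number of arrays, the lack of a dye swap and the use of ratios without intensities limit what can be said of weak or dim genes.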

Other observations

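The 6 genes that parted with higher ratios after carbon ions (YNR014W, YPK2, PGM2, TDA1, HXK1 and AIM17) were all called higher after gamma rays too, with means from 0.88 to 1.39, where 17.1% of the shared genes measured there were called higher. After thermal neutrons 2 of them were called higher (21.8% of the genes measured), PGM2 at 0.68 and AIM17 at 1.25. Of the 7 genes that parted with lower ratios after fast neutrons, 4 were called lower after thermal neutrons (23.0% of the genes measured) and 1 after gamma rays (21.5%), where 2 were called higher (17.1%). AGP1 stood at -1.89 after thermal neutrons and at 1.14 after gamma rays, and SSA4 at 4.84 after thermal neutrons and 0.09 after gamma rays. These sets were looked at after their values were seen, and no test was run on them.

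Of 19 measured hexose transport genes, 4 were called higher after carbon ions and 1 after fast neutrons. For 2 every carbon-ion array lay above every fast-neutron array and for 1 the reverse held, a share near that over all genes. HXT5, a transporter of slow growth, had ratios of 1.11, 1.68 and 0.41 after carbon ions (called) and of -0.14, 0.77 and -0.05 after fast neutrons (not called), and stood at 2.42 after gamma rays and -0.95 after thermal neutrons. MTH1, a repressor of hexose transporter genes, was called higher after carbon ions (1.54 ± 0.89) and fast neutrons (1.00 ± 0.12). Both genes had overlapping arrays, and their order by radiation was not tested.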
